A study of Rattus with 6 samples.

Results

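The genes described here are 10 subunits of the SWI/SNF chromatin remodelling complexes, also called BAF complexes, in cultured rat cardiac fibroblasts. They were found by their symbols in the deposited count table, which listed all 10 among its 21378 genes: Smarca4, Smarca2, Smarcb1, Smarcc1, Smarcc2, Smarcd1, Smarce1, Arid1a, Arid1b and Arid2. All 10 were well above the filter on low counts, in both groups, and entered the test. RNA sequencing of polyadenylated RNA was made from 6 libraries, 3 titled siCtrl and 3 titled siNONO. The siNONO cells were transfected with an siRNA against Nono, a nuclear RNA-binding protein, using a lipid reagent. The controls are titled siCtrl but labelled elsewhere as given an empty vector, so what they received is not settled. The cells were a commercially supplied fibroblast culture in complete medium, and neither strain, sex, age nor passage is given. A harvest time of 48 h is stated for RT-qPCR and western blotting, with none for sequencing. How many different siRNAs were used, and whether the replicates were separate cultures, is not stated either, so the p-values below may reflect technical spread alone. The subunits were selected on a measured value, the lower Smarca4 level of the siNONO libraries in this same comparison. Their differences between the groups are therefore given as descriptions, with standard errors and no p-value.

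BAF complexes use the energy of ATP to slide or evict nucleosomes, which opens promoters and enhancers to transcription factors. Each complex holds a single ATPase, SMARCA4 (BRG1) or SMARCA2 (BRM). ARID1A or ARID1B marks the canonical form, whereas ARID2 belongs to the PBAF form. Both of these forms have a core built from SMARCC, SMARCD, SMARCE1 and SMARCB1 subunits. A smaller noncanonical form lacks the ARID subunits and part of that core, and holds BICRA or BICRAL with BRD9. In the heart the complexes are known for roles in development and in the stress response of the muscle, and in fibroblasts for opening enhancers together with AP-1 factors.

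The targeted gene was lower in all 3 siNONO libraries. Nono stood at 238.6 ± 7.15 CPM (counts relative to library size and TMM factor; SD, n = 3) in siCtrl and 73.2 ± 3.15 CPM in siNONO. That is 30.7% of control (-1.70 ± 0.05 in log2, SE, with an adjusted p of 4.57e-11 by the edgeR quasi-likelihood test). Total counts per library ranged from 27792357 to 33365588. For the markers below, higher and lower mean past an adjusted p of 0.05 in the edgeR test. Over all 14412 tested genes 15.9% were lower and 16.2% higher. All 12 fibroblast markers on the list were tested, with 1 higher and 4 lower in siNONO. Their summed level was 40242 to 42980 CPM in siCtrl and 40076 to 40797 CPM in siNONO. Of 8 macrophage and leukocyte markers, 4 were lower in siNONO and 0 higher, with sums of 1294 to 1472 and 1234 to 1322 CPM. Endothelial markers summed to 17.5 to 18.7 and 19.6 to 20.9 CPM, with Cdh5, Kdr, Vwf and Emcn under 1 CPM. Of the cardiomyocyte markers Myh6, Actn2, Ryr2 and Tnni3 were under 1 CPM. Myh7, Nppa and Myl2 had no row under these symbols in the counts. The 6 cardiomyocyte markers in the table summed to 144.8 to 161.9 CPM in siCtrl and 109.5 to 118.0 CPM in siNONO, most of it Tnnt2, which was lower in siNONO (152 and 112 CPM). Of 7 pericyte and smooth muscle markers, 4 were lower and 1 higher, with sums of 66.7 to 73.1 and 54.6 to 58.0 CPM. Epicardial markers, of which 2 of 4 were higher, summed to 122.6 to 132.4 and 136.9 to 138.5 CPM. Markers of dividing cells were higher in 3 of 11 (Ccnb1, Mcm2 and Top2a) and lower in 0, with sums of 136.9 to 148.9 CPM in siCtrl and 153.5 to 162.6 CPM in siNONO. In these bulk libraries a change in the mix of cells and a change of RNA per cell cannot be told apart, and the part of these markers in the results below was not tested.

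The subunits covered a 12.5-fold range of level in the control cells. Levels of different genes are compared here in the deposited FPKM, which the authors made relative to gene length and depth. In siCtrl the highest was Smarce1, an HMG-box core subunit, at 34.2 ± 1.66 FPKM (SD, n = 3), followed by Smarcb1, a core subunit and tumour suppressor, at 33.4 ± 0.620. The siCtrl values of these overlapped, so their order is not settled by these libraries. Next came the scaffold gene Smarcc2 at 17.8 ± 0.993 FPKM, the ATPase gene Smarca4 at 16.0 ± 0.294, the scaffold gene Smarcc1 at 10.5 ± 0.683 and the second ATPase gene, Smarca2, at 8.64 ± 0.478. Each of these stood apart from its neighbours in all 3 siCtrl libraries, although Smarcc2 and Smarca4 came close, with a lowest value of 16.7 against a highest of 16.3 FPKM. Smarcd1, a subunit that links the complex to transcription factors, had 4.75 ± 0.342 FPKM and overlapped with Arid1a at 4.29 ± 0.254. The remaining ARID genes were lowest, Arid2 at 3.56 ± 0.181 and Arid1b at 2.74 ± 0.0611 FPKM. Among all 14412 tested genes the FPKM level of the subunits in siCtrl lay between the 40.6th percentile, for Arid1b, and the 87.0th, for Smarce1.

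**Figure D1:**
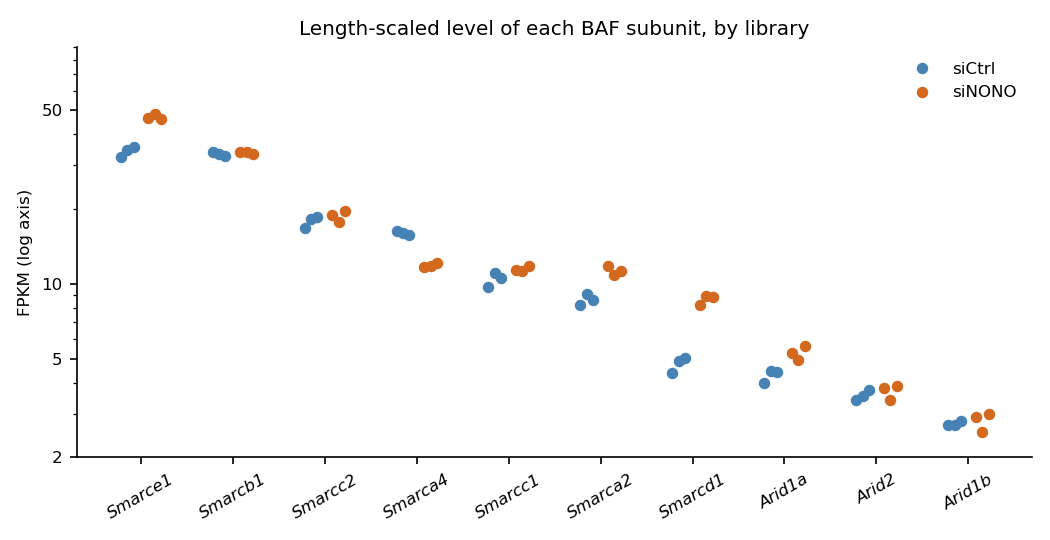
FPKM (log axis) of the 10 subunits in each library, in order of their siCtrl mean, with siCtrl in blue and siNONO in orange (3 points each). Smarca4 lies above Smarcc1 and Smarca2 in siCtrl and beside them in siNONO, where the means are 11.9, 11.4 and 11.3 FPKM.

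In siNONO the 10 subunits had the same order of mean FPKM as in siCtrl, with other gaps between them. Smarca4 was at 11.9 ± 0.242 FPKM, Smarcc1 at 11.4 ± 0.287 and Smarca2 at 11.3 ± 0.465, and the values of the 3 genes overlapped. Smarcd1, at 8.66 ± 0.387 FPKM, lay well above Arid1a, at 5.29 ± 0.345.

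Between the groups, 1 subunit was lower in siNONO, 4 were higher and 5 were not past the threshold. Of the 10 subunits, 5 were past the threshold of edgeR's quasi-likelihood test (Benjamini-Hochberg adjusted p of 0.05 over all genes): Smarca4 was lower, and Smarca2, Smarcd1, Smarce1 and Arid1a were higher in siNONO. Over all 14412 tested genes 32.1% were past it, 15.9% lower and 16.2% higher. The same 5 subunits had no overlap between the groups, against 45% of all tested genes, 22.1% without overlap and lower and 22.9% without overlap and higher. The median log2 fold change of the 10 was 0.05 (from -0.48 to 0.82) and that of all tested genes 0.00. Because Smarca4 prompted the choice of these genes, nothing is read from the counts. Scaling by total library size in place of TMM moved the share of raised genes among all called genes from 50.5% to 65.5%, and the median over all genes to 0.05, while the same 5 subunits stayed past the threshold in the same directions.

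The ATPase genes moved in opposite directions. Smarca4 (gene-Smarca4, chromosome 8) was at 123.9, 118.9 and 117.1 CPM in siCtrl replicates 1, 2 and 3 and at 84.0, 86.3 and 87.6 CPM in siNONO replicates 1, 2 and 3. Every siNONO library was thus below every control, by a gap wider than the range within either group. Group means of 120.0 ± 3.50 and 86.0 ± 1.81 CPM (SD, n = 3 each) put siNONO at 71.7% of control, or -0.48 ± 0.04 as a log2 fold change with its SE. Of all tested genes, 6.07% had a more negative log2 fold change. Smarca2 (chromosome 1) read 55.3, 60.0 and 56.8 CPM in the controls and 75.1, 70.0 and 72.2 CPM after knockdown. Here all siNONO libraries lay above all controls. Its means were 57.4 ± 2.42 and 72.4 ± 2.57 CPM, 126.3% of control, a log2 fold change of 0.34 ± 0.05, with 10.5% of all tested genes higher.

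The balance of the ATPase mRNAs shifted accordingly. As a share of the summed FPKM of both genes within a library, which does not depend on library scaling, Smarca4 made up 66.5%, 63.7% and 64.7% in siCtrl replicates 1, 2 and 3. In siNONO replicates 1, 2 and 3 the share was 49.8%, 52.3% and 51.8%. Smarca4 was thus the major ATPase mRNA in the controls and about level with Smarca2 after knockdown, with no overlap between groups. The mean share went from 65.0% ± 1.42 to 51.3% ± 1.31, a difference of -13.7 percentage points. The sum of both, as TMM-scaled CPM per kilobase, differed less than either gene: 25.1 ± 0.416 in siCtrl and 22.8 ± 0.282 in siNONO, or 90.8% of control. Unlike the share, this sum depends on scaling: in FPKM it was 24.7 ± 0.491 in siCtrl and 23.2 ± 0.430 in siNONO.

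**Figure D2:**
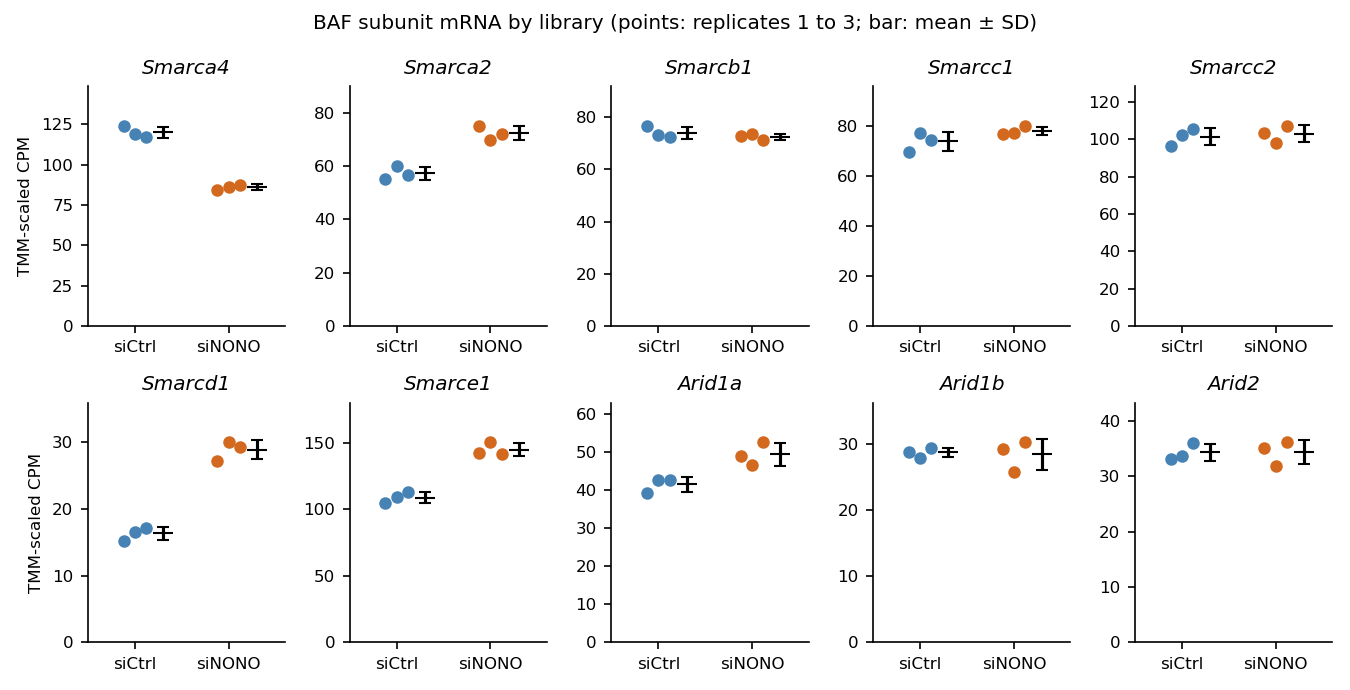
TMM-scaled CPM of each subunit in the 3 siCtrl (blue) and 3 siNONO (orange) libraries, with the mean and SD beside the points; each vertical axis starts at 0. The groups are apart for Smarca4 (lower in siNONO), Smarca2, Smarcd1, Smarce1 and Arid1a (higher) and overlap for the other 5.

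Among the core subunits Smarcd1 and Smarce1 were higher, and Smarcb1, Smarcc1 and Smarcc2 were not past the threshold. Smarcd1 (chromosome 7), which encodes BAF60a, showed the greatest difference of the 10 subunits. It was at 15.2, 16.6 and 17.2 CPM in siCtrl replicates 1, 2 and 3 and at 27.2, 29.9 and 29.3 CPM in siNONO replicates 1, 2 and 3. The lowest siNONO value was well above the highest control. Means of 16.3 ± 0.991 and 28.8 ± 1.42 CPM give 176.3% of control and a log2 fold change of 0.82 ± 0.06 (SE), and 1.76% of all tested genes had a higher one. Smarce1 (chromosome 10), which encodes BAF57, was at 104.6, 109.1 and 112.7 CPM in the controls and at 142.2, 150.2 and 141.7 CPM in siNONO. Its groups did not overlap, and the means of 108.8 ± 4.08 and 144.7 ± 4.79 CPM correspond to 133.0% of control, a log2 fold change of 0.41 ± 0.04.

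The core subunits Smarcb1, Smarcc1 and Smarcc2 overlapped between the groups. Smarcb1 (chromosome 20) was at 76.6, 73.1 and 72.4 CPM in siCtrl and 72.7, 73.6 and 71.1 CPM in siNONO (log2 fold change -0.03 ± 0.04). In RefSeq's GRCr8 gene table Derl3, a gene of the endoplasmic reticulum, overlaps Smarcb1. Derl3 had 312 to 459 counts per library against 2058 to 2444 for Smarcb1, and whether counting used the strand is not stated, so the count of Smarcb1 is uncertain to that extent. Smarca4, Smarca2 and Smarcb1 each also overlap a long noncoding RNA gene of that table that has no row of its own in the counts, and their counts carry the same uncertainty. Smarcc1 (chromosome 8) was at 69.7, 77.4 and 74.5 CPM in siCtrl and 77.0, 77.2 and 80.0 CPM in siNONO (0.08 ± 0.05). Smarcc2 (chromosome 7) was at 96.6, 102.2 and 105.5 CPM in siCtrl and 103.6, 98.3 and 107.2 CPM in siNONO (0.02 ± 0.05). The share of Smarcc1 in the summed FPKM of both scaffold genes was 36.9% ± 0.829 in siCtrl and 37.9% ± 0.723 in siNONO, with overlapping groups, unlike the ATPases.

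Of the ARID genes, which define the form of the complex, Arid1a differed between the groups. Arid1a (chromosome 5) was at 39.3, 42.5 and 42.7 CPM in siCtrl replicates 1, 2 and 3 and at 49.0, 46.5 and 52.5 CPM in siNONO replicates 1, 2 and 3. All siNONO values were above the controls, with the narrowest gap of the 5 subunits whose groups were apart, 42.7 to 46.5 CPM. It averaged 41.5 ± 1.88 and 49.3 ± 2.99 CPM, 118.9% of control and a log2 fold change of 0.25 ± 0.05 (SE). Arid1b (chromosome 1), its paralog in the canonical form, was at 28.8, 27.9 and 29.4 CPM in siCtrl and 29.2, 25.8 and 30.2 CPM in siNONO (-0.02 ± 0.06). Arid2 (chromosome 7), the PBAF subunit, was at 33.2, 33.7 and 36.0 CPM in siCtrl and 35.0, 31.9 and 36.1 CPM in siNONO (0.00 ± 0.06). For both, siNONO replicate 2 was the lowest library and the groups overlapped. Arid1a accounted for 61.0% ± 1.32 of the summed FPKM of Arid1a and Arid1b in siCtrl and 65.3% ± 0.836 in siNONO, without overlap.

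**Figure D3:**
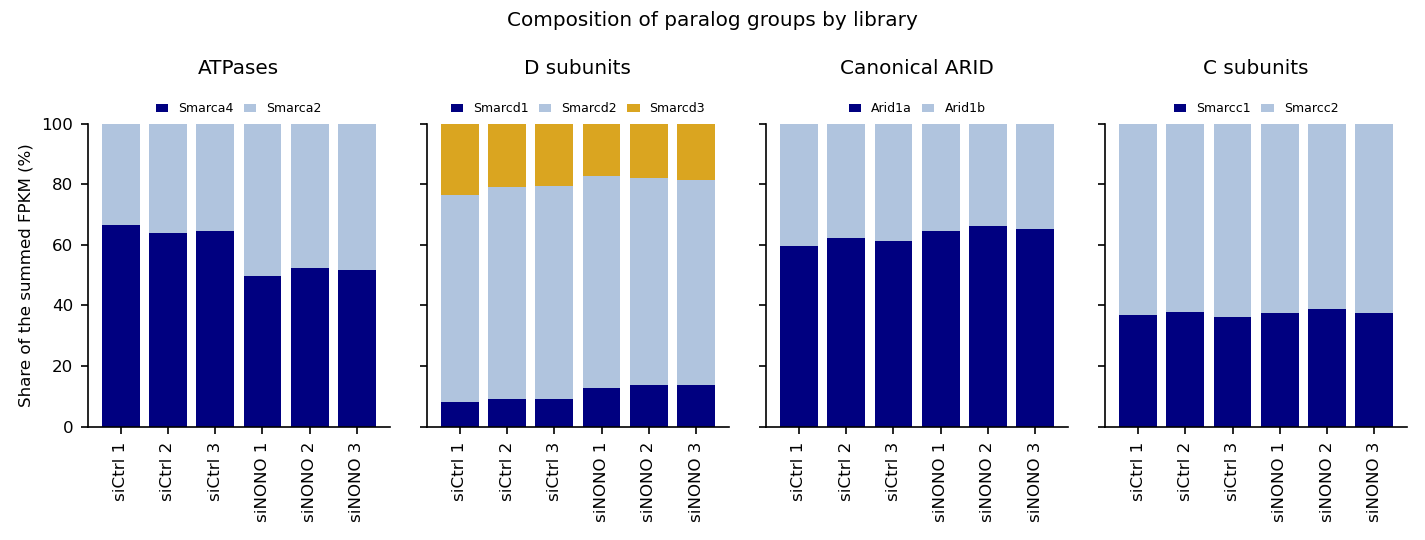
Share (%) of each gene in the summed FPKM of its paralog group, 1 bar per library, for the ATPases, the D subunits, the ARID genes of the canonical form and the C subunits. The Smarca4 share is 63.7% to 66.5% in the siCtrl libraries and 49.8% to 52.3% in the siNONO libraries, while the Smarcc1 share overlaps between groups.

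Other subunits of the same complexes, outside the 10, were mostly not past the threshold. Of a list of 21, 17 were tested, of which 3 rose and 2 fell (29.4%, against 32.1% of all tested genes), with a median log2 fold change of 0.00 against 0.00 over all genes. Of the rest, Dpf3 had 2 to 7 counts per library, Bcl11a at most 2 and Bcl11b at most 1. Actl6b had no row under this symbol in the counts. The list was composed with the results for the 10 known.

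Of the paralogs that can fill the D position of the complex, Smarcd2 was higher as well as Smarcd1. Smarcd2 (chromosome 10), a paralog of Smarcd1 that takes the same place, was at 116.0, 118.0 and 120.3 CPM in siCtrl and 138.2, 137.4 and 133.9 CPM in siNONO (log2 fold change 0.21 ± 0.04; edgeR adjusted p = 0.00121). Smarcd3, the paralog known from heart and muscle development, was at 26.8 ± 2.10 and 26.0 ± 1.21 CPM (-0.05 ± 0.06; edgeR adjusted p = 0.625). Smarcd2 was the major D subunit mRNA in every library, at 69.4% ± 1.15 of the summed FPKM of the 3 genes in siCtrl and 68.7% ± 1.28 in siNONO. Smarcd1 went from 8.85% ± 0.527 to 13.4% ± 0.547 and Smarcd3 from 21.7% ± 1.68 to 18.0% ± 0.758, both without overlap. As TMM-scaled CPM per kilobase the D subunits summed to 54.6 ± 0.439 in siCtrl and 63.8 ± 0.729 in siNONO, 116.9% of control. In FPKM, which is scaled otherwise, they summed to 53.6 ± 0.697 and 64.8 ± 0.327.

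DPF proteins, which read histone acetylation in the canonical complex, moved in both directions. Dpf1, known from neurons, was at 3.54, 2.71 and 2.99 CPM in siCtrl and 5.82, 5.27 and 5.30 CPM in siNONO, and its log2 fold change was 0.83 ± 0.13 (edgeR adjusted p = 0.000234). It thus rose from a low level. Dpf2, the abundant paralog, fell from 99.9 ± 0.901 to 87.1 ± 1.43 CPM (-0.20 ± 0.04; edgeR adjusted p = 0.00181). Dpf2 still made up 98.2% ± 0.248 and 96.4% ± 0.171 of the summed FPKM of Dpf1 and Dpf2.

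Subunits of the noncanonical form also moved both ways. Bicral was at 20.0 ± 1.40 CPM in siCtrl and rose to 24.5 ± 0.660 (0.29 ± 0.06; edgeR adjusted p = 0.00259). Its paralog Bicra went from 44.4 ± 1.39 to 40.5 ± 0.965 CPM (-0.13 ± 0.05; edgeR adjusted p = 0.0427). The call of Bicra ended in 5 of the 6 fits without 1 library, all but that without siCtrl replicate 1 (adjusted p up to 0.159). It also ended with scaling by total library size (0.242), the DESeq2 Wald test (0.0961), no filter (0.0789) and both fits to FPKM (0.292 and 0.303). Brd9 had 0.14 ± 0.05 (edgeR adjusted p = 0.0707) and was past the threshold without siCtrl replicate 2 (0.0454), with total library size (0.0219) and in both fits to FPKM (0.0290 and 0.0317). The PBAF subunits Pbrm1 (0.00 ± 0.05), Brd7 (-0.04 ± 0.04) and Phf10 (-0.10 ± 0.05) did not pass. Nor did the subunits common to several forms, namely Actl6a (-0.03 ± 0.07), Ss18 (0.03 ± 0.04), Ss18l1 (0.05 ± 0.10), Bcl7a (0.20 ± 0.13), Bcl7b (-0.01 ± 0.05), Bcl7c (0.05 ± 0.06) and Actb (0.00 ± 0.04), the last of which mainly serves the cytoskeleton.

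**Figure D4:**
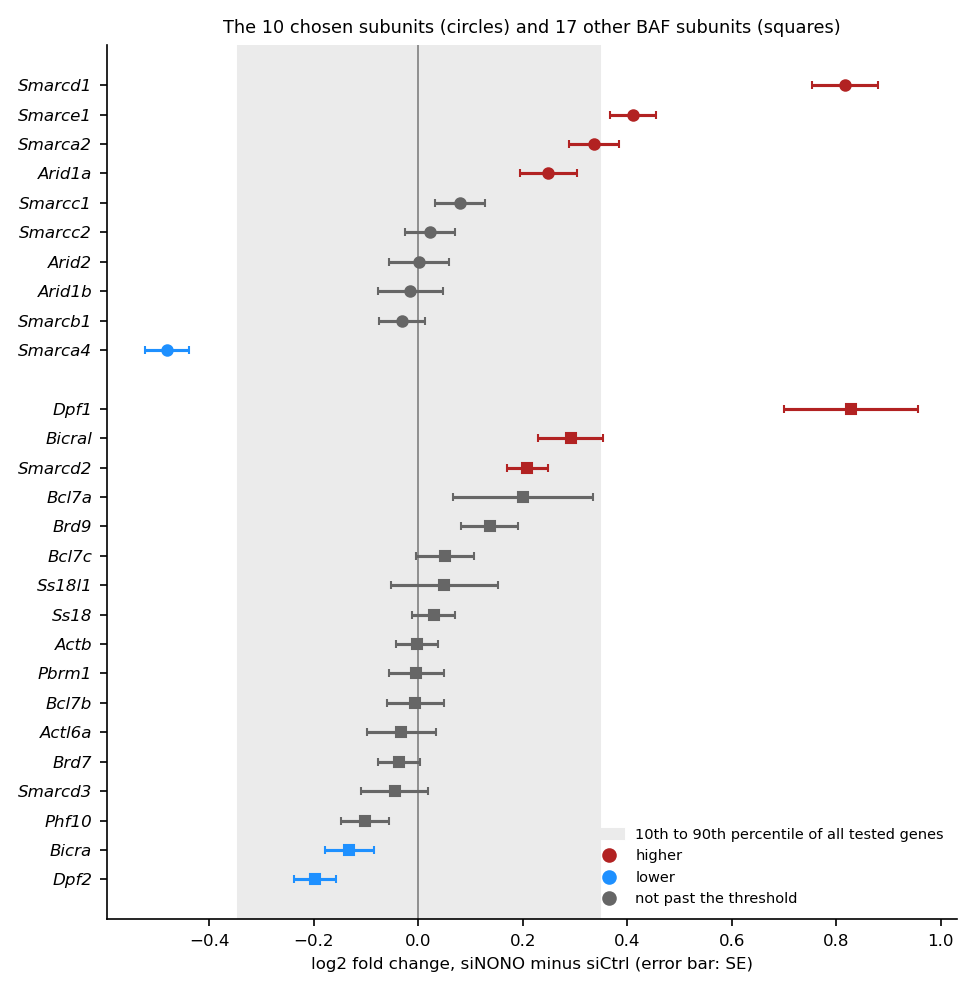
Log2 fold change (siNONO minus siCtrl) with its SE for the 10 chosen subunits (circles) and the 17 other tested BAF subunits (squares), red where higher and blue where lower at an adjusted p of 0.05. The grey band holds the middle 80% of all tested genes (-0.34 to 0.35); Smarcd1, Smarce1, Smarca4 and Dpf1 lie outside it.

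Other families of remodellers were counted from lists for comparison. Of 12 ISWI genes 3 rose and 0 fell (25.0% called, with 32.1% over all genes), with a median log2 fold change of 0.14. In this family the bromodomain gene Cecr2 (0.56 ± 0.13; edgeR adjusted p = 0.00562), the histone-fold gene Pole3 (0.32 ± 0.05; 0.000355) and Baz1a (0.31 ± 0.08; 0.00676) rose. The ISWI ATPase genes Smarca5 (0.07 ± 0.05) and Smarca1 (0.39 ± 0.19) did not pass. Without siNONO replicate 2, 5 ISWI genes were raised, with 2061 of 14490 over all tested genes.

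Of 21 tested genes of the CHD and NuRD family 7 rose and 2 fell (42.9% called, with 32.1% over all genes, median 0.11). The deacetylase gene Hdac1 (0.22 ± 0.04; edgeR adjusted p = 0.000775), the helicase gene Chd6 (0.21 ± 0.06; 0.0129) and Mta3 (0.20 ± 0.05; 0.00735) rose most. Cdk2ap1 (-0.38 ± 0.04; 2.25e-05) and the methyl-DNA-binding family gene Mbd3 (-0.17 ± 0.05; 0.0198) fell. Chd6 was not past the threshold without siCtrl replicate 2 (adjusted p = 0.0555) or siNONO replicate 3 (0.0727), and 4 genes of the family were raised without siNONO replicate 3. Mbd3 lost its call without siCtrl replicate 1 (0.0605) or siNONO replicate 1 (0.0996), with total library size (0.0664) and in both fits to FPKM (0.0719 and 0.0716). With total library size and in both fits to FPKM, 10 genes of the family were raised and 1 was lowered. Over all 14412 tested genes the balance also moved, from 2338 raised and 2292 lowered to 3174 and 1673 with total library size. In the fits to log2(FPKM + 1) and log2(FPKM + 0.1), 2829 and 2820 were raised and 1546 and 1566 lowered. Without siNONO replicate 3, 1704 of 14490 tested genes were raised.

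Of 31 INO80, SRCAP and TIP60 genes 6 rose and 0 fell (19.4% called, with 32.1% over all genes, median 0.07). Those with the largest rise were Yy1, a transcription factor that is also an INO80 subunit (0.35 ± 0.08; edgeR adjusted p = 0.00352), Ing3 (0.29 ± 0.09; 0.0304) and Morf4l1 (0.22 ± 0.04; 0.000566). Ing3 was not past the threshold in the fits that left out siCtrl replicate 1 (adjusted p = 0.101), siNONO replicate 1 (0.104) or siNONO replicate 3 (0.104), nor in the DESeq2 Wald test (0.0598), and 3 genes of the family were raised without siNONO replicate 3. With total library size 11 were raised. Over all 14412 tested genes 3174 were raised in that setting, against 2338 with TMM. Without siNONO replicate 3, 1704 of 14490 tested genes were raised.

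Polycomb complexes compact chromatin and are known as opponents of BAF. Of 27 tested Polycomb genes 5 rose and 2 fell (25.9% called, with 32.1% over all genes, median 0.03). Pcgf5 (0.37 ± 0.09; edgeR adjusted p = 0.00469), the histone methyltransferase gene Ezh1 (0.34 ± 0.05; 0.000149) and Yaf2 (0.32 ± 0.05; 0.000383) rose most. Pcgf6 (-0.27 ± 0.08; 0.0148) and Cbx6 (-0.24 ± 0.04; 0.000658) fell, the former losing its call without siNONO replicate 1 (adjusted p = 0.0583). Ezh2, the paralog of Ezh1, had 0.02 ± 0.11.

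**Figure D5:**
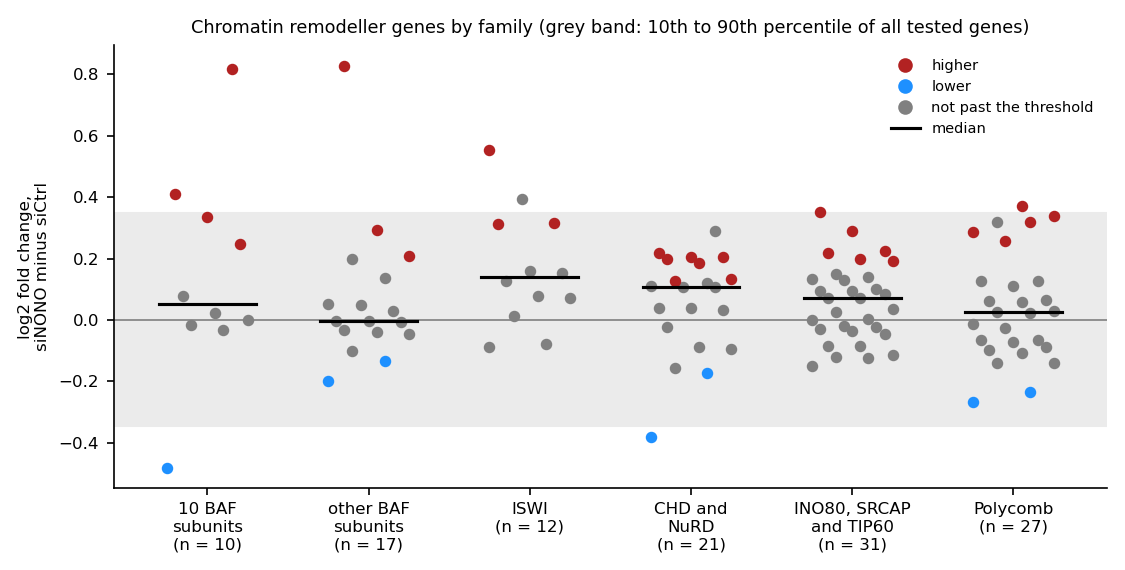
Log2 fold change (siNONO minus siCtrl) of each tested gene of the remodeller and Polycomb lists, 1 point per gene, with the median as a bar and the middle 80% of all tested genes as a grey band. Medians lie between 0.00, for the other BAF subunits, and 0.14, for ISWI; Smarca4 is the lowest point, at -0.48.

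The expression pattern of Smarca4 over the 6 libraries was shared by many genes. Among 10085 other tested genes with a mean of at least 5 CPM, 12.4% had a Pearson correlation of log2 CPM with Smarca4 above 0.9, and these points share the difference between the 2 groups and the scaling of each library. The closest were Wdfy1, Tmbim1, Ttc28, Arf2 and Ptp4a2, with r between 0.998 and 0.999 (n = 6 libraries). Their log2 fold changes were -0.34, -0.47, -0.54, -0.43 and -0.16.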

How the data were processed

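Per the labels' protocols, DNase-treated RNA was poly(A)-selected and made into libraries with a stranded mRNA kit. Per the submitters' processing notes, HISAT2, edgeR and genome build mRatBN7.2 were used. Versions, annotation, counting tool and strand setting: not given in the sources used here. The deposited table of raw read counts gave the tests and CPM; the deposited FPKM values, scaled by the authors for gene length and library size, gave comparisons between genes. No other samples' columns (0) were present. Genes were filtered with filterByExpr (14412 of 21378 kept) and scaled by TMM. The test was edgeR 4.0.16's quasi-likelihood test (R 4.3.3, 4 residual degrees of freedom, two-sided, Benjamini-Hochberg adjustment over all genes, threshold 0.05). Each SE was obtained as the log2 fold change over the root of the F statistic. Lengths in kilobases were recovered as count / FPKM / library total. The scripts were tested on simulated data. Replicates of a group differed by more than counting noise (chi-square per degree of freedom 3.33 to 8.05). Alternative settings were scaling by DESeq2 size factors or total library size, no filter or a minimum of 1 CPM in 3 libraries, the Wald test of DESeq2 1.42.0, limma 3.58.1 on log2(FPKM + 1) and log2(FPKM + 0.1), a replicate block and leaving out each library. The subunits and lists were chosen with earlier results of these data known. Named were Nono, the 10 subunits, the other tested BAF subunits, up to 3 called genes with the largest rise and 3 with the largest fall from each other list, and the 5 genes correlated most with Smarca4; Smarca5, Smarca1 and Ezh2 were named after their values were seen. Overlapping genes were looked up by symbol in RefSeq's GRCr8 table (10 of 10 matched), whose coordinates are of another build and are not printed. Figures were drawn with matplotlib 3.10.9. Protein and promoter sequences were not used here.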

Additional observations from a re-analysis of the deposited data

How the results depend on the processing

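The 10 subunits kept their side of the threshold in all 14 alternatives run, with 4 higher and 1 lower in each. All alternatives refit the libraries from which the subunits were chosen, so this describes the processing and adds no support. Over the alternatives, the log2 fold change ranged from -0.50 to -0.40 for Smarca4, 0.31 to 0.39 for Smarca2 and 0.75 to 0.87 for Smarcd1. It ranged from 0.38 to 0.46 for Smarce1 and 0.20 to 0.30 for Arid1a. Smarcb1, Arid1b, Arid2 and Smarcc2, none past the threshold, changed sign in some. The Smarca4 share difference, which scaling and the choice of test cannot move, was -14.3 to -12.9 percentage points without single libraries and -13.4 from plain counts, against -13.7. Same-numbered replicates did not deviate together (r of -0.13, -0.22 and 0.00). These deviations are from means of 3 libraries, so they cannot settle whether same-numbered libraries were paired. With a replicate block 1894 genes were raised and 1863 lowered, against 2338 and 2292. Total library size gave 3174 and 1673, and the DESeq2 Wald test 1898 and 2017. The fit to log2(FPKM + 1) gave 2829 and 1546, and that to log2(FPKM + 0.1) gave 2820 and 1566. Leaving out single libraries gave 1675 to 2243 raised and 1694 to 2143 lowered. The family counts below are to be read beside these. Lowered other BAF subunits numbered 1 rather than 2 with total library size, no filter, the DESeq2 Wald test, both fits to FPKM and the block, and 1 to 2 without single libraries, since Bicra lost its call. Lowered CHD and NuRD genes numbered 1 rather than 2 with total library size, both fits to FPKM and the block, and 1 to 2 without single libraries. Raised ones numbered 10 with total library size and both fits to FPKM, 5 with the Wald test and the block, and 4 to 7 without single libraries, against 7. With the block Mbd3 (adjusted p = 0.0545) and Ing3 (0.0533) lost their calls. Raised INO80, SRCAP and TIP60 genes numbered 11 with total library size and 10 in both fits to FPKM, against 6; without single libraries 3 to 6 were raised and 0 to 1 lowered. Without single libraries 3 to 5 ISWI genes were raised and 1 to 2 Polycomb genes lowered. The causes were not tested. At these depths Dpf3 (2 to 7 counts), Bcl11a and Bcl11b were too low to be compared.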

Other observations

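Within the siCtrl group, 7 of the 10 subunits had their lowest CPM in replicate 1, while Smarca4 and Smarcb1 had their highest there. Within siNONO, 6 subunits were highest in replicate 3. The same was not counted over all tested genes, so these counts are not read as a trait of the subunits. Over genes with at least 10 counts on average, siCtrl replicate 1 differed more from replicates 2 and 3 than these did from each other. The chi-square per degree of freedom was 7.75 and 8.05, against 4.37. The coefficient of variation of the subunits was 2.51% to 6.07% in siCtrl and 1.71% to 8.16% in siNONO, with Arid1b lowest in the first and highest in the second.

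In the RefSeq gene order Timm29, a mitochondrial import gene, is a protein-coding neighbour of Smarca4 and was not past the threshold (log2 fold change 0.03), beside -0.48 for Smarca4. Beside Smarca2 lies Vldlr, which was lower (-0.42), while Smarca2 was higher. The neighbours of Arid2, Ano6 (0.20) and Scaf11 (0.19), were both higher, and Arid2 was not past the threshold (0.00). Derl3, which overlaps Smarcb1, was lower (-0.54). These genes were looked up after the values of the subunits were known.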
